A study of Bos taurus with 16 samples.

Results

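Histone chaperones are the proteins that bind histones outside nucleosomes and hand them on for storage, transport or deposition onto DNA. The genes described here were NPM2, NASP, ASF1A, ASF1B, HIRA, CHAF1A, CHAF1B, DAXX, ATRX and SSRP1, chosen as 10 named genes and looked up by gene symbol among the 27393 loci of the deposited table. A locus of that name was found for 9 of the 10 genes, HIRA being the gene without one. NASP was the only name with 2 loci, and the locus with the higher mean was used. The values come from single oocytes and single embryos of cattle (Bos taurus) that matured or developed in vivo. The labels name no genotype or treatment, and the breed and age of the donors are not given in the sources used here. The 16 samples covered 8 stages with 2 samples each: matured oocytes (MII), 2-, 4-, 8- and 16-cell embryos (2C, 4C, 8C and 16C), early morulae (EM), compact morulae (CM) and blastocysts (BL). Total RNA of each oocyte or embryo went through 2 rounds of amplification before SOLiD sequencing. The samples of a stage are separate individuals, and amplification error is part of the spread between them.

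In eggs and early embryos the chromatin is rebuilt on stored maternal products until the embryonic genome is switched on. NPM2 is the oocyte nucleoplasmin that stores histones and remodels sperm chromatin, and NASP keeps a soluble reserve of the core histones H3 and H4. ASF1A and ASF1B, paralogous proteins, accept newly made H3 and H4 and pass them to the deposition machines. CHAF1A and CHAF1B are subunits of chromatin assembly factor 1, which works behind the replication fork, whereas HIRA and the pair of DAXX and ATRX deposit the replacement variant of H3. SSRP1 and its partner SUPT16H form FACT, which opens and closes nucleosomes ahead of polymerases. Embryonic genome activation (EGA) of embryos grown in vivo was placed between the 4C and 8C stages, so 6 samples (MII, 2C and 4C) stood before it and 10 (8C to BL) after it.

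Levels are given as normalised read counts, that is reads on a locus divided by the size factor of the sample as the authors deposited them. These counts are not divided by gene length, so they compare a gene with itself across stages and not with other genes. The number of reads behind each value was recovered from the step between values. Samples held 607672 to 3379426 reads, with a median of 1347534.5, and 3 reads, taken as the floor of detection, were worth 1.09 to 5.40 normalised reads. All 9 genes passed the filter on low counts. Their reads summed over the 16 samples ran from 166 for CHAF1B to 3746 for NASP, so CHAF1B, NPM2 (171 reads), DAXX (328), CHAF1A (348) and SSRP1 (379) rest on few reads per sample. The correlation of log2 values between the 2 samples of a stage was lowest at 8C (Pearson r = 0.809 across loci) and highest at EM (0.935). The summed level of 7 oocyte markers, of which BMP15 was listed at 0 in every sample, ran from 609 to 1060 before EGA and from 3.04 to 139 after it. In the 8C embryos it was 7.21 in replicate 1 and 139 in replicate 2. The sum of 8 markers of cumulus cells, which surround the oocyte, ran from 1275 to 2641 before EGA and from 406 to 1048 after it. Most of it was STAR, which had reads in all samples. HAS2 was 98.1 to 367 before EGA and had reads in 2 of the 10 samples after it, while PTX3 had 12 reads in all and TNFAIP6 5. PTGS2 was 3.69 to 25.5 before EGA, 0 in 6 of the 8 embryos from 8C to CM, 3.32 in CM replicate 1, 66.3 in 16C replicate 2, and 286 and 233 in BL. Of 6 trophectoderm markers, the sum was 27.7 to 61.3 before EGA, 82.6 to 414 from 8C to CM and 1462 and 1383 in BL, although CDX2 had 1 read in all samples together. The markers did not move jointly, and in EM most of the sum was TFAP2C, at 251 and 199. There GATA2 was 0.773 and 0.391, against 6.38 to 49.3 before EGA, while KRT18 was 10.8 and 10.9, against at most 0.922. The sum of 3 inner cell mass markers, mostly POU5F1, was 288 to 510 before EGA and 1881 to 8637 after it. POU5F1 was already 8628 and 3252 in 8C. NANOG had 0 reads before EGA and 312 after it, and SOX2 had 33 and 34. Fewer transcripts per cell and fewer cells cannot be told apart in whole embryos.

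**Figure D1:**
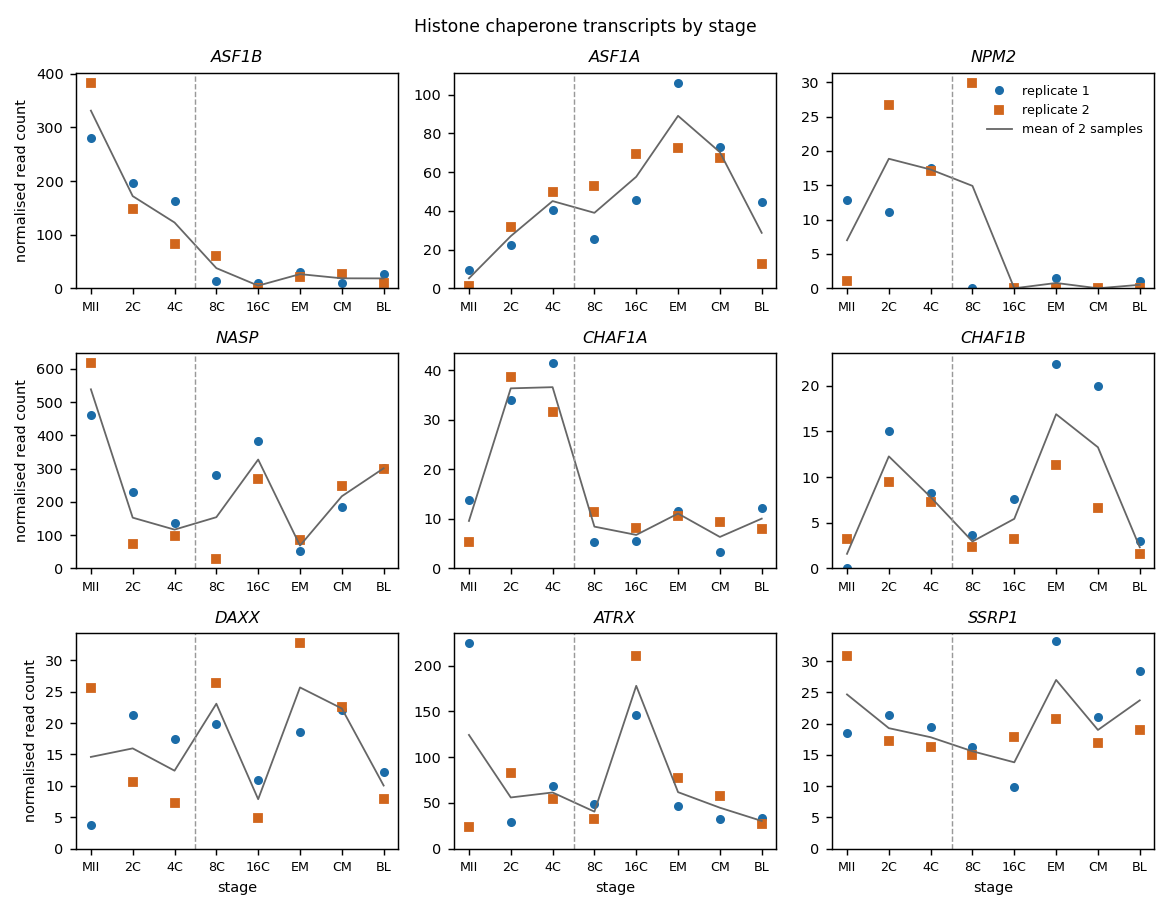
Normalised read counts (linear vertical axes, 1 panel per gene) of the 9 histone chaperone genes found, by stage; points are single oocytes or embryos, the line joins the means of 2 samples, and the dashed line marks EGA. ASF1B fell from 281 and 382 in MII oocytes to at most 60.8 from 8C on, and the CHAF1A counts of the 2C and 4C embryos, 31.7 to 41.5, stood above those of all other samples.

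Among the 9 genes ASF1B had the smallest limma adjusted p at EGA, and the ratio of ASF1A to ASF1B within samples rose. ASF1B (XLOC_062907) fell at EGA and ASF1A (XLOC_070413) rose, although the rise of ASF1A rested on its low level in MII oocytes. ASF1B was highest in MII oocytes on this scale, at 281 and 382 normalised reads. It was 196 and 147 in 2C embryos and 163 and 82.0 in 4C embryos. From the 8C stage on it was low, at 14.4 and 60.8 in 8C, 9.80 and 0 in 16C, 30.9 and 21.9 in EM, 9.97 and 27.2 in CM, and 27.4 and 9.51 in BL. As CPM, the recovered reads scaled to the total of each sample, the MII oocytes had 135 and 157 and the 2C embryos 165 and 120, so the order of these stages depended on the scaling. Every sample before EGA lay above every sample after it, the nearest being a 4C embryo at 82.0 and an 8C embryo at 60.8 (62.1 and 51.0 in CPM). ASF1B was the only 1 of the 9 genes whose samples did not overlap between the periods, a separation found at 24.9% of the 9670 loci tested, and in this direction at 12.5% of them.

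The mean of ASF1B was 209 ± 107 before EGA (SD, n = 6) and 21.2 ± 17.1 after it (n = 10). On the scale of log2(normalised read count + 1) the stage means after EGA were lower by 3.61 (log2 change -3.61, SE 0.50, limma adjusted p = 1.2e-05), or 12.2-fold. Leaving out any 1 sample kept this change between -3.96 and -3.27. The fall was not assigned to a single step. ASF1B was lower by 1.92 on the log2 scale in 8C than in 4C embryos (SE 0.96), a difference that did not pass the test (limma adjusted p = 0.13).

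ASF1A ran the other way. It was lowest in MII oocytes, with 9.23 and 1.06 normalised reads, the second of these being 1 read. It was 22.2 and 31.7 in 2C, 40.6 and 49.5 in 4C, 25.2 and 52.8 in 8C, and 45.7 and 69.5 in 16C embryos. ASF1A was 106 and 72.3 in EM, 73.1 and 67.6 in CM, and 44.6 and 12.7 in BL. The samples of the periods overlapped, since the 4C embryos were already within the range of the later ones. The mean was 25.7 ± 18.5 before EGA (SD, n = 6) and 56.9 ± 26.7 after it (n = 10), and the log2 change of 1.50 (SE 0.39) passed the test (limma adjusted p = 0.0032). With both MII oocytes left out the change was 0.52 and did not pass (limma adjusted p = 0.23). Between 4C and 8C the log2 difference was -0.29 (SE 0.76), with a 95% interval from -1.91 to 1.33. In the order of stage means, EM, CM, 16C, 4C, 8C and BL each overlapped with the next. The MII oocytes, last in that order, alone lay apart from the stage above them, which was 2C.

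Taken within each sample, the share of ASF1 reads that lay on ASF1A was 3.19% and 0.278% in the MII oocytes. It was 10.1% and 17.7% in 2C embryos and 19.9% and 37.7% in 4C embryos. After EGA it was 63.6% and 46.5% in 8C, 82.4% and 100% in 16C, 77.4% and 76.8% in EM, 88.0% and 71.3% in CM, and 62.0% and 57.1% in BL. All 10 later samples thus lay above all 6 earlier ones, with medians of 74.0% and 13.9%. The 16C embryo at 100% had 43 reads on ASF1A and 0 on ASF1B, for which the Wilson 95% interval reached down to 91.8%. The blastocyst at 57.1% rested on 14 reads, with an interval from 32.6% to 78.6%. These are shares of reads, and both their size and their change in percent depend on the lengths of the transcripts. The intervals cover counting error only, because amplified copies were not told apart.

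**Figure D2:**
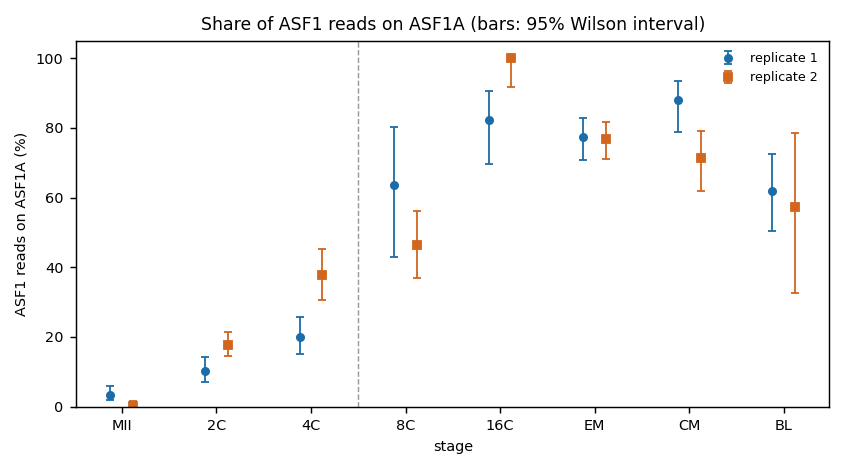
Percent of the reads on ASF1A and ASF1B together that lay on ASF1A (vertical axis) by stage, 1 point per oocyte or embryo, with 95% Wilson intervals as bars and EGA as a dashed line. The 6 samples before EGA sit at or below 37.7%, and the 10 samples after it at or above 46.5%.

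The change of the ratio was tested on log2(ASF1A + 1) minus log2(ASF1B + 1) by an exact two-sided permutation test over the 8008 ways of dividing the 16 samples. Here and for the other pairs single samples were divided, and their grouping by stage was ignored. The log2 ratio was -3.38 ± 2.44 before EGA (SD, n = 6) and 1.73 ± 1.78 after it (n = 10), a rise of 5.12. The exact p was 1.2e-04, the smallest that such a division can give, and 6.2e-04 after Benjamini-Hochberg adjustment over the 5 pairs of genes tested. Without both MII oocytes the rise was 3.73 (exact permutation, adjusted p = 0.0025). Unlike the rise of ASF1A alone, the change of this ratio kept its call without those oocytes. The ratio also holds the fall of ASF1B, so its call does not show that ASF1A rose. The smallest ratio after EGA, -0.20, belonged to 8C replicate 2, the 8C embryo with the higher level of oocyte markers.

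Of the subunits of chromatin assembly factor 1, the larger one, CHAF1A (XLOC_063779), fell at EGA, and its highest counts were those of the 2C and 4C embryos. In MII oocytes CHAF1A had 13.8 and 5.32 normalised reads. It was higher in 2C, at 34.0 and 38.7, and in 4C, at 41.5 and 31.7. It was then 5.40 and 11.5 in 8C, 5.44 and 8.09 in 16C, 11.6 and 10.6 in EM, 3.32 and 9.38 in CM, and 12.2 and 7.92 in BL. The 4 embryos of the 2C and 4C stages lay above all other samples, and the MII oocytes overlapped with the samples after EGA. The mean was 27.5 ± 14.6 before EGA (SD, n = 6) and 8.54 ± 3.04 after it (n = 10). The change at EGA was -1.40 on the log2 scale (SE 0.37, limma adjusted p = 0.0033). Without both MII oocytes it was -2.05 (limma adjusted p = 6.8e-04).

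CHAF1A was also the only 1 of the 9 genes called between 4C and 8C embryos, where 36.8% of loci were called and 19.1% were called lower. The log2 change was -2.06 (SE 0.71, limma adjusted p = 0.034). This call was near the threshold. It was lost with edgeR (adjusted p = 0.083) and DESeq2 (adjusted p = 0.059), and without either 4C embryo or without 8C replicate 1 (limma adjusted p from 0.10 to 0.17).

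CHAF1B (XLOC_000495), the smaller subunit, had low counts throughout. Its values were 0 and 3.19 in MII, 15.0 and 9.49 in 2C, 8.30 and 7.31 in 4C, and 3.60 and 2.29 in 8C. They were 7.62 and 3.23 in 16C, 22.4 and 11.3 in EM, 19.9 and 6.57 in CM, and 3.04 and 1.58 in BL. CHAF1B was highest in EM replicate 1 and CM replicate 1, the other CM embryo lay below both 4C embryos, and the periods overlapped. Each MII oocyte had at most 3 reads on it. Its change at EGA was 0.18 on the log2 scale (SE 0.44, limma adjusted p = 0.73, 95% interval -0.77 to 1.12). The within-sample log2 ratio of CHAF1A to CHAF1B went from 1.95 ± 1.13 (SD, n = 6) to 0.38 ± 1.34 (n = 10), a change of -1.57. The exact permutation p was 0.027 and the adjusted p 0.034. This call was lost in 7 of the 16 fits that left out a sample, with adjusted p up to 0.11 without MII replicate 1, and also without both MII oocytes (exact permutation, adjusted p = 0.072).

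NPM2 (XLOC_067029) had reads in all 6 samples before EGA and in 1 of the 8C embryos, and was at 0 or under the floor from 16C on. It had 12.9 and 1.06 normalised reads in MII oocytes, 11.1 and 26.6 in 2C, and 17.5 and 17.1 in 4C embryos. In 8C embryos it was 0 in replicate 1 and 29.8 in replicate 2, the highest value of all samples. From 16C on it was 0 in 6 of 8 embryos, with 1.55 in EM replicate 1 and 1.01 in BL replicate 1, which were 2 reads and 1 read and under the floor. Of its 171 reads, 142 came from the samples before EGA and 26 of the 29 later reads from 8C replicate 2. The log2 change at EGA was -2.87 (SE 0.65, limma adjusted p = 0.0011), which understates a fall towards 0. With each sample left out in turn it ranged from -3.37 to -2.38. Its size depended on how low counts were treated, at -1.45 with a pseudocount of 5 and -4.35 with edgeR, and it passed in both. Between 4C and 8C the change was -1.72 (SE 1.26, limma adjusted p = 0.30), and without 8C replicate 2 it was -4.19 and passed (limma adjusted p = 0.0095).

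In the same 8C embryo the oocyte markers ZP4 (16 reads), GDF9 (18 reads) and ZAR1 (51 reads) were present, whereas each of them had 0 reads in the other 8C embryo. ASF1B was 60.8 in the former and 14.4 in the latter. The part of this difference between the 8C embryos in the results for NPM2 and ASF1B was not tested beyond leaving out each embryo. The oocyte and cumulus sums were also lower after EGA than before it, as ASF1B, NPM2 and CHAF1A were, and their part in these falls was not tested. The relative of NPM2 that most cells use, NPM1 (XLOC_033382), had 67.3 to 424 normalised reads before EGA and 84.0 to 330.2 after it. Its log2 change of 0.61 did not pass (limma adjusted p = 0.071). The log2 ratio of NPM2 to NPM1 changed from -3.45 ± 2.21 (SD, n = 6) to -6.93 ± 1.47 (n = 10), by -3.48 (exact permutation p = 0.0034, adjusted p = 0.0056). The periods overlapped, with -7.69 in MII replicate 2. NPM2 was 0 in 7 of the later samples, where its term was set by the added 1, and the change ran from -4.71 to -2.04 over 6 alternative settings.

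NASP (XLOC_050446) was present in every sample and had no single direction across EGA. It had 460 and 617 normalised reads in MII oocytes and fewer in 2C, at 230 and 74.8, and in 4C, at 137 and 96.7. The 8C embryos differed widely, at 279 and 28.7. NASP was 384 and 270 in 16C, 51.0 and 86.0 in EM, 185 and 249 in CM, and 302 and 299 in BL. The EM embryos lay below those of 16C and CM. The MII oocytes lay above all embryos on this scale but not in CPM, where they had 221 and 254 against 273 and 275 in 16C and 293 and 277 in BL. NASP passed the test over the 8 stages (limma adjusted p = 0.040), a call near the threshold that was lost with total-read scaling (adjusted p = 0.097), with edgeR (0.080), with no filter (0.088) and in 12 of 16 fits that left out a sample. It did not pass at EGA, where the log2 change was -0.27 (SE 0.42, limma adjusted p = 0.57). The change was 0.21 when samples were scaled to their total reads and 0.43 without both MII oocytes, so that its direction was not fixed. The second NASP locus (XLOC_051120) had 167 and 250 in MII, 42.2 and 58.1 in 4C, and 208 and 195 in BL, and its log2 change was 0.03. The main locus held 53.4% to 73.3% of the reads of both loci before EGA and 29.4% to 81.0% after it, with 8C replicate 2 lowest. How the counting divided reads between these loci is not given in the sources used here.

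With all samples in the fit, DAXX, ATRX and SSRP1 did not pass the test over the 8 stages or the test at EGA. DAXX (XLOC_039597) ranged from 3.69 to 25.5 normalised reads before EGA and from 4.85 to 32.8 after it, and its log2 change was 0.35 (SE 0.42, limma adjusted p = 0.47). Its lowest value came from MII replicate 1 and its next lowest from 16C replicate 2. ATRX (XLOC_075336), the chromatin remodeller that partners DAXX, had 225 and 23.4 in MII oocytes, 29.3 and 82.5 in 2C, and 68.3 and 54.4 in 4C embryos. It was 48.6 and 32.1 in 8C, 146 and 210 in 16C, 46.4 and 77.0 in EM, 32.1 and 57.2 in CM, and 33.5 and 26.9 in BL. The 16C embryos were above all other embryos on this scale, while the MII oocytes held the highest and the lowest value. In CPM the highest sample was 16C replicate 2 (214), and 16C replicate 1 (104) lay below EM replicate 2 (109) and MII replicate 1 (108). Over the 8 stages the limma adjusted p of ATRX was 0.22, but 0.036 without MII replicate 1 and 0.018 without MII replicate 2, so this result turned on those oocytes.

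The log2 difference of ATRX between 16C and 8C was 2.12 (SE 0.82) and did not pass after adjustment (limma adjusted p = 0.21). At EGA its change was -0.11 (SE 0.43, limma adjusted p = 0.82), and 0.42 without MII replicate 1. The log2 ratio of DAXX to ATRX went from -2.23 ± 2.04 (SD, n = 6) to -1.77 ± 1.49 (n = 10). That change of 0.47 did not pass the exact permutation test (p = 0.61).

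SSRP1 (XLOC_017856) had the smallest ratio of highest to lowest value among the 9 genes, running from 9.80 to 33.2 normalised reads over all 16 samples. It was 18.5 and 30.8 in MII, 21.4 and 17.2 in 2C, 19.4 and 16.2 in 4C, and 16.2 and 14.9 in 8C. It was 9.80 and 17.8 in 16C, 33.2 and 20.7 in EM, 21.1 and 16.9 in CM, and 28.4 and 19.0 in BL. The means were 20.6 ± 5.34 before EGA (SD, n = 6) and 19.8 ± 6.72 after it (n = 10). The log2 change was -0.09 with a 95% interval from -0.75 to 0.57 (limma adjusted p = 0.81).

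Its partner in FACT, SUPT16H (XLOC_003568), fell at EGA. SUPT16H had 3033 and 289 normalised reads in MII oocytes, 258 and 1156 in 2C, and 1414 and 1223 in 4C embryos, against 71.0 to 317 in the 10 later samples. The log2 change was -2.59 (SE 0.45, limma adjusted p = 1.1e-04), and the lowest values before EGA overlapped with the highest after it. The log2 ratio of SSRP1 to SUPT16H rose from -5.38 ± 1.63 (SD, n = 6) to -2.87 ± 0.98 (n = 10), by 2.50 (exact permutation p = 0.0026, adjusted p = 0.0056). The mRNAs of the 2 subunits of FACT therefore changed unequally.

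**Figure D3:**
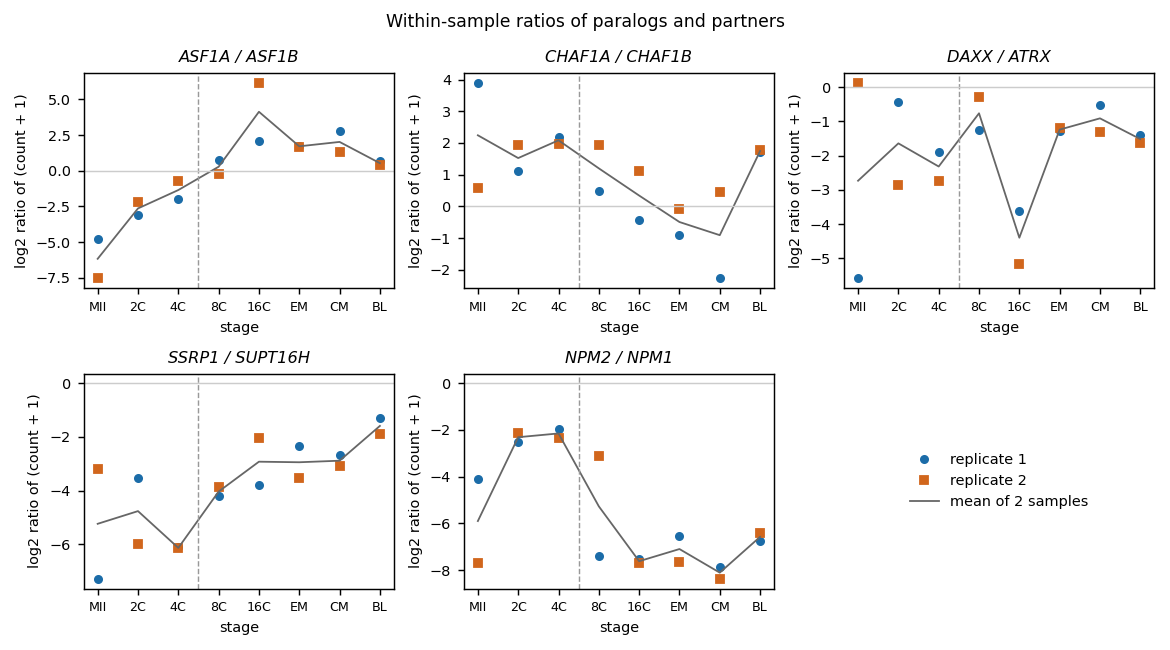
Log2 ratio of (normalised read count + 1) of 2 genes within each sample, by stage, for the 5 pairs tested; points are single oocytes or embryos, the line joins the means of 2 samples, and the dashed line marks EGA. ASF1A/ASF1B rises from -7.54 in an MII oocyte to 6.14 in a 16C embryo with no overlap between the periods, whereas DAXX/ATRX overlaps widely between both sides of EGA.

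Of the 9 genes, 4 were called at EGA, ASF1A higher and ASF1B, NPM2 and CHAF1A lower. This is 44.4% of them, where 70.0% of the 9670 loci were called (37.9% higher and 32.1% lower). The share of chaperones called was thus below that of all loci, a difference that was not tested. Both edgeR and DESeq2 on the recovered reads also called 4. The median log2 change of the 9 genes was -0.11 and that of all loci 0.23. With samples scaled to their total reads these medians were 0.36 and 0.61, so the sign of the former depended on the scaling. Over the 8 stages 6 of the 9 genes passed (ASF1A, ASF1B, NPM2, CHAF1A, CHAF1B and NASP), where 66.7% of loci did so. By edgeR 4 passed and by DESeq2 5. ASF1A and ASF1B passed in all 16 fits that left out a sample, CHAF1A in 12, NPM2 in 8, CHAF1B in 6 and NASP in 4. CHAF1B was also lost with edgeR (adjusted p = 0.076) and DESeq2 (adjusted p = 0.10).

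Few changes could be placed between neighbouring stages other than 4C and 8C. None of the 9 genes passed between successive stages by limma, edgeR or DESeq2. The percentages of loci called were 1.42% from MII to 2C, 0% from 2C to 4C, 0.858% from 8C to 16C, 0.103% from 16C to EM, 0% from EM to CM and 4.42% from CM to BL. From MII to 2C, 4 of the 9 genes had an unadjusted p under 0.05, namely ASF1A (log2 change 2.58), CHAF1B (2.66), CHAF1A (1.94) and NASP (-2.01). At that threshold 16.4% of all loci passed. The adjusted p of these 4 ran from 0.093 for ASF1A to 0.21 for NASP (limma). With samples scaled to their total reads, ASF1A, CHAF1A and CHAF1B were called higher in 2C than in MII, where that scaling called 5.65% of loci.

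The unadjusted p was also under 0.05 for 3 genes from 8C to 16C (NASP, ASF1B and ATRX), 2 from 16C to EM (NASP and ASF1B), 1 from CM to BL (CHAF1B) and 0 at the other steps. The shares of all loci under it were 17.3% from 8C to 16C, 11% from 16C to EM, 18.1% from CM to BL, 4.56% from 2C to 4C and 5.02% from EM to CM. Between the 8C and 16C embryos and the later EM, CM and BL, where 0.993% of loci were called, none of the 9 genes passed by limma, edgeR or DESeq2, and 0 had an unadjusted p under 0.05, which 15.7% of loci had. Scaled to total reads, 3 of the 9 genes had one in that comparison (ASF1B, CHAF1B and SSRP1, 19.3% of loci) and 5 from 16C to EM (15.6% of loci), and none passed after adjustment (limma adjusted p from 0.12 to 0.30).

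Beyond these genes, a list of 30 other chaperones and partner proteins was read from the same test, and 27 of its genes passed the filter. NPM3 (45 reads in all) and TONSL (16 reads) were too low, and RBBP7 was listed at 0. Of the 27, 19 changed at EGA, 11 higher and 8 lower, which is 70.4% of them. This was close to the 70.0% of all loci, and their median log2 change was 0.50 against 0.23.

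On this scale, where rises of genes with few reads are understated, the largest rise was that of HAT1, the enzyme that acetylates new histone H4, by 3.27 (SE 0.38, limma adjusted p = 2.5e-06). HAT1 had a mean of 6.51 ± 5.19 normalised reads before EGA (SD, n = 6) and 56.5 ± 26.2 after it (n = 10), with no overlap, as its highest value before was 13.9 and its lowest after was 29.4. IPO4, the importin that carries H3 and H4 with ASF1 into the nucleus, rose by 2.74. CDAN1, whose product codanin binds ASF1 in the cytoplasm, rose by 2.37, ANP32B by 2.13 and the nucleolar protein gene NCL by 2.04. These compare the periods and do not place a rise between 4C and 8C. At 8C CDAN1 was 0 and 4.59, within its range before EGA (up to 8.93), and its 16C mean was 11.4. The means of NCL already climbed before EGA, at 17.0 in MII, 46.4 in 2C and 90.6 in 4C, against 149 in 8C. IPO4 had 13 reads in all before EGA, at 0 in 4 of 6 samples, and CDAN1 had 17, so the sizes of their rises depended on the treatment of low counts. IPO4 rose by 1.39 with a pseudocount of 5 and by 3.94 with edgeR, and CDAN1 by 1.40 and 2.97.

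The largest falls, in this order, were those of VPS72 (-3.16), DEK (-2.86), SUPT16H (-2.59), ANP32E (-2.38) and UBN2 (-2.23). The products of VPS72 and ANP32E respectively help to load and to remove the variant H2A.Z, DEK is a chromatin protein that binds histones, and UBN2 is a partner of HIRA. The other partner of HIRA, UBN1, changed by -0.82 and stood close to the threshold (limma adjusted p = 0.047). Apart from UBN1, the adjusted p of the listed genes named here as rises and falls ran from 2.5e-06 to 9.0e-04.

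**Figure D4:**
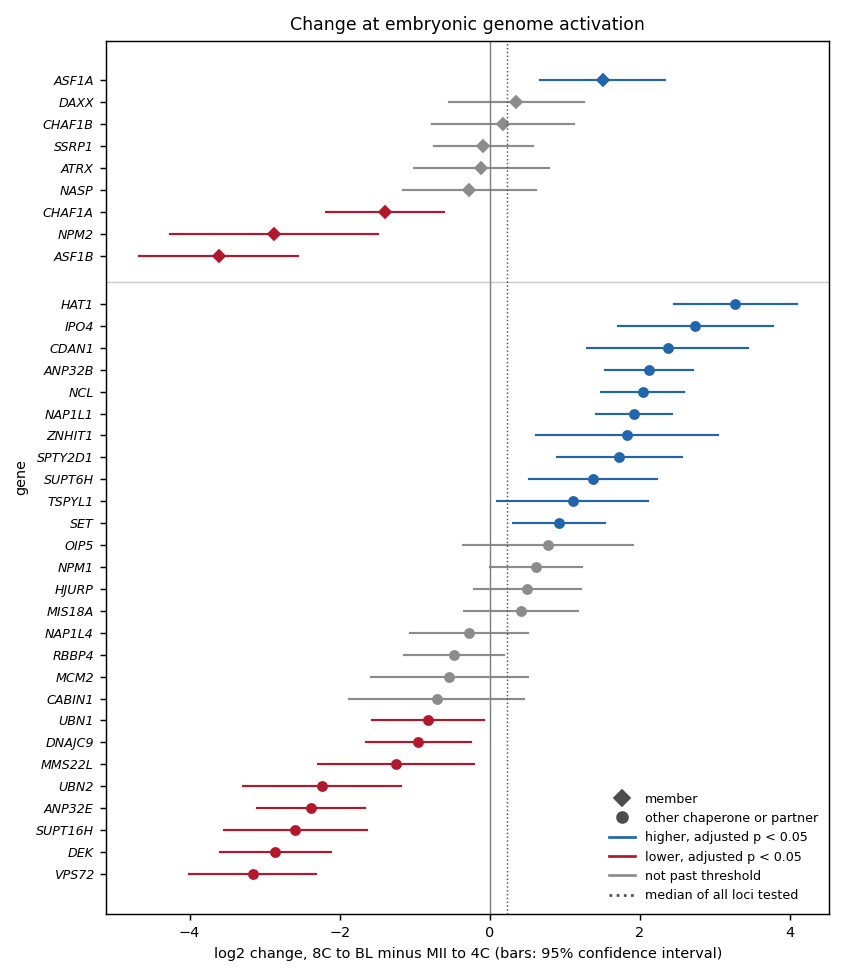
Log2 change at EGA (horizontal axis: mean of the 8C to BL stage means minus mean of the MII, 2C and 4C stage means, on log2(normalised read count + 1)) for the 9 genes (diamonds) and the 27 other chaperones tested (circles), with 95% intervals as bars. Colour marks genes past adjusted p of 0.05, and the dotted line is the median of all loci, 0.23; ASF1B (-3.61) and HAT1 (3.27) are the extremes.

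**Figure D5:**
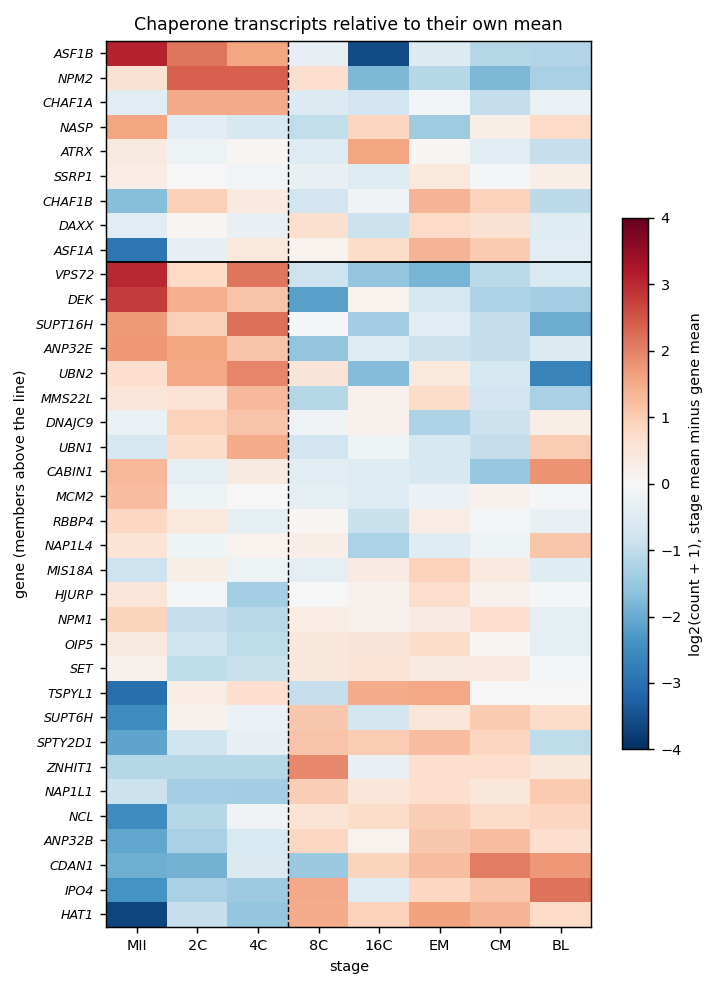
Stage mean of log2(normalised read count + 1) minus the gene's mean over the 8 stages (colour scale) for each chaperone gene (rows, the 9 genes above the line) and stage (columns), with EGA as a dashed line. On this scale ASF1B is highest in MII, NPM2 and CHAF1A are highest at 2C and 4C, and ATRX is highest at 16C.

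Across the 8 stage means of log2(normalised read count + 1), the loci most like ASF1B among 9091 with a gene symbol were TNK2 (Pearson r = 0.982), ELK1 (0.981) and PDIA5 (0.979). Those most like ASF1A were TMCO1 (0.985), C5H12orf29 (0.980) and OAT (0.975). An r above 0.95 was found with 35 loci for ASF1B and with 15 for ASF1A. These correlations describe 8 points that share the same 16 libraries and their depths.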

How the data were processed

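Single bovine oocytes and embryos were profiled at 8 stages (2 samples each). The values that the authors deposited are a signal per locus: reads were counted, and each sample's counts were divided by a size factor. The submitters' processing notes name cutadapt, FastQC, TopHat, Cufflinks and HTSeq. The genome build, tool versions and handling of reads that map to several places are not given in the sources used here. The values of a sample rise in steps of its smallest non-zero value, and 100% of them lay on such a step (tolerance 0.01), so reads were recovered by division. Groups and replicate numbers came from the labels. Values on log2(deposited signal + 1) were tested by limma 3.58.1 (R 4.3.3, trend, empirical Bayes, 8 stages as a factor). Loci were kept by filterByExpr on the recovered reads (9670 loci), and p-values were adjusted by Benjamini-Hochberg over all of them at 0.05. The EGA contrast was the mean of the 5 stage means after minus that of the 3 before. Ratios of 5 pairs were compared by exact permutation (Python 3.11.15, scipy 1.17.1); the planned pair of HIRA and UBN1 was not run because no locus is named HIRA.

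The genes, lists and tests were chosen with earlier results of these data known. Named beyond the 9 genes are the 5 largest rises and 5 largest falls among called chaperones, genes of a pair, and the 3 loci most correlated with the member that rose most and the member that fell most. Alternatives were TMM or total-read scaling, pseudocounts of 0.5 and 5, no filter, edgeR 4.0.16 and DESeq2 1.42.0 on the recovered reads, summed loci, a replicate block, a model of 2 periods, and samples left out. Leaving out both MII oocytes, the second NASP locus alone and crossed numbers were added after seeing the data. Same-numbered samples are different individuals. Over 28 pairs of stages the correlation of their deviations ran from -0.257 (MII and 2C) to 0.134, with 1 above 0.1. The numbers were therefore not used as a pairing in the main fit, and a shared donor or batch was not tested. Sequences were not used here.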

Additional observations from a re-analysis of the deposited data

Results flagged for a closer look

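Values that stood apart from the other samples of their period were looked for in 28 groups of 6 or 10 values (the 9 genes and 5 ratios, before and after EGA) by the gap to the nearest sample over the range. The rule takes about 5% of groups to be marked by chance, and 6 of the 28 were marked. Each group mixes stages, and the ratios share genes with the single-gene groups, so the 6 cannot be set against that 5%. After EGA, 8C replicate 2 was high for NPM2 (29.82 normalised reads) and ASF1B (60.79), and for the log2 ratio of NPM2 to NPM1 (-3.128). Oocyte markers summed to 139 in that embryo and to 7.21 in the other 8C embryo, and their part in these values was not tested. Before EGA, MII replicate 1 was high for ATRX (225.2) and MII replicate 2 was high for SSRP1 (30.85). The log2 ratio of ASF1A to ASF1B was high in 16C replicate 2 after EGA (6.14), where ASF1B had 0 reads among the 607672 of the sample.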

How the results depend on the processing

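The 4 calls at EGA (ASF1A, ASF1B, NPM2 and CHAF1A) stayed past the threshold in all 16 fits that left out a sample, which each gave 4 calls. In these fits the remaining sample of a stage was assumed to vary like those of the other stages. ASF1A was lost without both MII oocytes (log2 change 0.52). Of the 9 genes, 3 passed over the 8 stages with no filter (ASF1A, ASF1B and CHAF1A). That setting tested 18318 loci, so the 66.7% of loci given above is not the share to set beside it. From 4C to 8C, edgeR and DESeq2 called 0 of them, and leaving out each sample gave 0 to 2. Between successive stages, scaling to total reads gave 3 (all from MII to 2C), and leaving out each sample gave 0 to 3. Those were ASF1A from MII to 2C without MII replicate 1 (1 call), ASF1B from 8C to 16C without 16C replicate 1 (1 call), and NASP, ASF1B and NPM2 from 8C to 16C without 8C replicate 1 (3 calls). Other chaperones called at EGA ranged from 16 to 21, and ratios from 3 to 4, with each sample left out. Changes at EGA that did not pass took the opposite sign in some settings: NASP (0.21 scaled to total reads, 0.43 without both MII oocytes, 0.029 for the second locus), ATRX (0.36 scaled to total reads, 0.0098 without both 8C embryos, 0.026 without both MII oocytes), SSRP1 (0.37 scaled to total reads, 0.033 with edgeR, 0.032 without both MII oocytes) and CHAF1B (-0.62 without both MII oocytes). With each sample left out the log2 changes ranged from -0.60 to 0.051 for NASP, -0.17 to 0.52 for CHAF1B, -0.063 to 0.77 for DAXX, -0.65 to 0.42 for ATRX and -0.21 to 0.031 for SSRP1. The DAXX to ATRX ratio ranged from -0.21 to 0.94, reversing without MII replicate 1. The cause of these changes was not tested. With the replicate number as a block, 6 of the 9 genes passed over the stages, 4 at EGA and 1 from 4C to 8C, as without it, and 18 other chaperones were called at EGA. Over all loci the block gave 6750 calls at EGA and 109 from MII to 2C, against 6768 and 137 without it, and 44 against 83 from 8C to 16C. Exchanging the numbers of the MII oocytes in the block, chosen after seeing the data, gave 123 calls from MII to 2C. The model of 2 periods tested 6910 loci and left out NPM2 and CHAF1B. Summed loci were not run for the ratios. Over the 8 stages ATRX passed only without MII replicate 1 or MII replicate 2. The sizes for NPM2 (from -4.35 to -1.45), IPO4 (from 1.39 to 3.94) and CDAN1 (from 1.40 to 2.97) moved most with the pseudocount and the tool. Those of CHAF1B (-0.62) and CHAF1A (-2.05) moved most without both MII oocytes. Depth limits low genes, since 3 reads were worth up to 5.40 normalised reads.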
